A study of Mus musculus with 6 samples.

Results

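The regions described here are the accessible regions of NMuMG cells that were in the peak list of vehicle-treated cells and had no counterpart in the list made after 2 h of TGFβ1. NMuMG is an established epithelial line from normal mouse mammary gland. Accessible DNA was mapped by ATAC-seq, in which the transposase Tn5 cuts open chromatin and leaves sequencing adapters there. All cells were first kept for 6 h without serum and insulin. Some cultures were then given vehicle for 2 h, which the protocol names as HCl with bovine serum albumin and the labels as Tris-HCl with bovine serum albumin. Others were given TGFβ1, at a concentration of 5 ng/ml, and were taken after 2 h or 12 h. A condition is represented by 2 biological replicates that the deposited files hold as 1 peak list, so a region carries no value per replicate. Vehicle cells were taken at 2 h and not at 12 h, so the longer treatment and the longer serum withdrawal cannot be told apart.

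In each list, distinct intervals of 150 bp or more were taken and gaps under 1000 bp were closed, and the 3 lists were merged in the same way into 39435 union regions. A union region was chosen when it held a vehicle region and no 2 h region. There were 610 such regions, called missing regions below, which is 1.55% of all union regions and 3.66% of the 16652 union regions with a vehicle region. Of the 610, 457 were in the vehicle list alone and 153 were also in the 12 h list. Over all union regions with a vehicle region, 8.08% had no 12 h region. These subsets are given apart, except that shares of the vehicle list count both, with the split beside the main ones. The regions were chosen by their presence in the vehicle list and their absence at 2 h, so presence, width and score in the vehicle list are a description and were not tested. The comparison group was the 16042 union regions with both a vehicle and a 2 h region, called kept regions.

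Open chromatin outside promoters often marks enhancers or insulators. CTCF is a zinc-finger protein that binds a long, conserved DNA motif at insulators and at the anchors of chromatin loops, where it leaves a short accessible stretch between positioned nucleosomes. AP-1 is a dimer of Fos and Jun family proteins that binds a short palindrome in many enhancers, and the SNAI and ZEB repressors of epithelial genes bind the E-box CAGGTG. TGFβ acts through SMAD proteins, which often bind beside AP-1.

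Matches to the CTCF consensus were more frequent in the missing regions than in the kept regions, and the following sites are shown because that result rests on such matches. In each subset the regions with a CTCF match were ranked by vehicle score, and the first 4 are given, a choice made after the values were seen. Each line is 60 bases of mm9 (NCBIM37), read 5′ to 3′ on the strand of the match, with the 12 bases of the match in capitals. Here and below, the nearest gene is the protein-coding gene with the closest start site. Genes of other types were left out of this label, and one can lie nearer or hold the site. The first 4 were in the vehicle list alone.
chr17:31822584-31822643, plus strand, nearest gene Cryaa: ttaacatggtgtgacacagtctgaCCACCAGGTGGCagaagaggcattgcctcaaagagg
chr8:127097543-127097602, minus strand, nearest gene Capn9: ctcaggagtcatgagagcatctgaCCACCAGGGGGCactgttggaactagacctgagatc
chr17:87443886-87443945, minus strand, nearest gene Cript: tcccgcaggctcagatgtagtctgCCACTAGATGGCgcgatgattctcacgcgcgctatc
chr15:85726894-85726953, plus strand, in a coding exon of Trmu: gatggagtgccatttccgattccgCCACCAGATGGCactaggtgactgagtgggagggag

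The next 4 sites lay in regions that were in the vehicle and 12 h lists, and they are written in the same way.
chr5:120955442-120955501, plus strand, nearest gene Plbd2: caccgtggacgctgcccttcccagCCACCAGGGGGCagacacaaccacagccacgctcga
chr6:70748001-70748060, minus strand, nearest gene Rpia: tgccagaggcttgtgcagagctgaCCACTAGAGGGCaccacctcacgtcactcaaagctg
chr16:55469374-55469433, minus strand, nearest gene Zpld1: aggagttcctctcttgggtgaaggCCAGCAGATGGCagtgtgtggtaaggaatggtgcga
chr7:146305469-146305528, plus strand, in an intron of Stk32c: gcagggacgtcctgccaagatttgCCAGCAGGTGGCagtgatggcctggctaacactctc

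The 2 sites below hold an AP-1 match in capitals and are shown because such matches were rare among the missing regions. The first lay in the vehicle list alone and in an intron of Ctdspl, and the second in the vehicle and 12 h lists, between genes on chromosome 19. Both were chosen after the values were seen, as the region of highest score in its subset with a match within 100 bp of its centre, outside untranslated exons.
chr9:118837905-118837964, minus strand, intron of Ctdspl: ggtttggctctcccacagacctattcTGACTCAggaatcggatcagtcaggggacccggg
chr19:34408979-34409038, plus strand, nearest gene Fas: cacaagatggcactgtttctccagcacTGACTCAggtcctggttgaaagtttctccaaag

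Finally, 200 bases around the centre are given for 4 of the regions with a vehicle score of 1000, to show sequence without a CTCF match. Capitals mark matches to the other motifs searched, the CCAAT box aside. The first 2 were in the vehicle list alone and the other 2 in the vehicle and 12 h lists.
chr11:52037834-52038033, plus strand, nearest gene Skp1a, no match: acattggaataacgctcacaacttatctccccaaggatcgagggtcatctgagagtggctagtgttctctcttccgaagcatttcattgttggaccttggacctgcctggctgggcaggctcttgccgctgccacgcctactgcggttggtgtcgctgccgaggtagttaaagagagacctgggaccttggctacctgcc
chr11:114436678-114436877, plus strand, nearest gene Rpl38, SNAI and ZEB box: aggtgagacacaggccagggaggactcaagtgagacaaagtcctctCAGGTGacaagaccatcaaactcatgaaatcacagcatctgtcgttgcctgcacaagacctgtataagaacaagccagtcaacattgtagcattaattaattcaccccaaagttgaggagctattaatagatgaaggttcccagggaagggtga
chr4:145743389-145743588, plus strand, intron of Gm13251, HNF1 motif: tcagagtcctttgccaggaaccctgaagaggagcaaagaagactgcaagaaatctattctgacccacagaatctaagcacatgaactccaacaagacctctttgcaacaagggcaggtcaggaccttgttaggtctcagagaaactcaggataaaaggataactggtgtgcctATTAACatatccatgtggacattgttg
chr8:22127516-22127715, plus strand, nearest gene Defa21, STAT site: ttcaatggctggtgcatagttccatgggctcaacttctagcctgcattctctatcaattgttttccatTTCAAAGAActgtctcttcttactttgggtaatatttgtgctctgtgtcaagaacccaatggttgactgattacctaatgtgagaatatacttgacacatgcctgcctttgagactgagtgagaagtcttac

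The 3 lists differed in size, with 16765 regions for vehicle, 32548 at 2 h and 33079 at 12 h, so the missing regions were absent from a list larger than the one that held them. The labelled cell type was checked by whether a vehicle region lay within 1000 bp of the 5′ end of marker genes. This held for Krt8 and Krt18, 2 of 7 markers of mammary epithelium, and for 0 of the 13 markers of leukocytes, endothelium, muscle and neurons. The 5′ ends of the epithelial markers Cdh1 and Krt19 were covered in both TGFβ1 lists but not in the vehicle list, as was that of the neuronal marker Snap25, and those of Epcam, Cldn3 and Cldn7 in none of the lists. The files give no reads per peak, and the library totals that the study states were not used here. Intervals below are 95% intervals for counting error only (Wilson for a share, Newcombe for a difference of shares), and regions are not replicates of a condition, so no p-value is given.

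In the vehicle list the missing regions were narrow and of low score. The median width was 295 bp in the vehicle list alone subset (quartiles 198 and 436 bp, range 150 to 3294 bp) and 205 bp in the subset with a 12 h region (quartiles 177 and 337 bp, range 150 to 1161 bp), against 584 bp in kept regions. The score, for which no scale is stated, runs from 540 to 1000 in that list. Its lowest value equals the scaled value that the IDR program, which compares peak ranks between replicates, gives at a threshold of 0.05. The median score was 626 (quartiles 577 and 705) in the vehicle list alone, 657 (quartiles 588 and 754) with a 12 h region, and 1000 in kept regions. Of the 8707 vehicle-holding regions with the highest score, 16 were missing at 2 h, 10 of them in the vehicle list alone and 6 with a 12 h region.

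Read by width, 282 of 1628 vehicle regions of 150 to 249 bp were missing at 2 h, which is 17.3% (15.6 to 19.2%), with 180 in the vehicle list alone and 102 with a 12 h region. The share was 5.44% at 250 to 399 bp, 2.30% at 400 to 599 bp, 1.01% at 600 to 899 bp and 0.646% above that, so the share fell with each step of width. The split from 250 bp upward was 142 and 24, 80 and 16, 35 and 8, and 20 and 3. By score it was 19.7% at 540 to 599, 12.1% at 600 to 699, 6.12% at 700 to 799, 2.61% at 800 to 899, 1.02% at 900 to 999 and 0.184% at 1000, and the split was 170 and 44 in the lowest class and 161 and 53 in the next. Score and width each went with the share within broad classes of the other, inside which the other still varied. Among regions under 250 bp, 25.9% (23.0 to 29.0%) of those with a score under 700 and 8.72% (6.97 to 10.9%) of those with a higher score were missing. Among regions of 400 bp or more the corresponding shares were 9.79% and 0.488%.

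**Figure D1:**
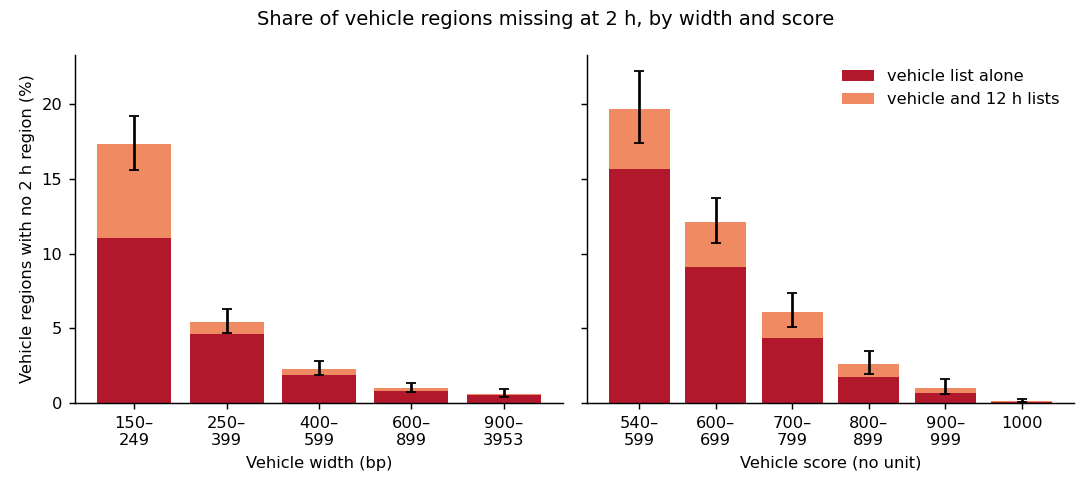
Share of the 16652 vehicle-holding regions without a 2 h region (percent, y axis) by vehicle width in bp (left) and by vehicle score (right), split into regions in the vehicle list alone and regions also in the 12 h list; error bars are 95% Wilson intervals of the whole share. The share fell from 17.3% in the narrowest regions to 0.646% in the widest, and from 19.7% at the lowest scores to 0.184% at a score of 1000.

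The rule's own limits were read once, as values. The missing regions closest to a 2 h region lay 1002, 1012 and 1013 bp from it. A further 52 vehicle regions shared no base with a 2 h region but were joined to one by the closing of gaps. The farthest lay 1211 and 2071 bp away, both bridged by a 12 h region, and the next 983 bp away. At the width limit, 39 of the 610 were at most 160 bp wide. Another 289 vehicle intervals, of up to 149 bp, lay 1000 bp or more from any vehicle or 2 h region and were left out by width. A 2 h interval under 150 bp lay inside 8 of the 457 and 3 of the 153.

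Most missing regions stayed absent at 12 h. Of the 610, 74.9% had no 12 h region, against 5.54% of kept regions. Absence at 2 h and absence at 12 h were read against the same vehicle list, so these shares are a description. Regions of 150 to 249 bp had a 12 h region in 36.2% (30.8 to 41.9%), whereas those of 250 to 399, 400 to 599 and 600 bp or more had one in 14.5%, 16.7% and 16.7%. In the 153 with both, the vehicle and 12 h regions shared at least 1 bp in 151. The 12 h region was wider in 120 of the 153, or 78.4% (71.3 to 84.2%), narrower in 32 and of equal width in 1. Median widths there were 346 bp (12 h) and 205 bp (vehicle), and the median difference within a region was 55 bp (quartiles 6 and 188 bp). In the 15154 regions of all 3 lists the share wider at 12 h was 83.7% (83.1 to 84.3%). The intervals of these shares overlap.

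In each subset 8 regions are named by score, with ties going to the wider region. In the vehicle list alone 10 regions tied at a score of 1000, and of the 8 widest of these 1 covered a start site of a protein-coding gene. A region at chr17:6488424-6489615, 1192 bp wide, covered a start site of Tmem181b-ps. The region chr11:52037702-52038165, 464 bp wide, lay in an intron of the lincRNA gene Gm16953, 7332 bp from a start site of Skp1a, which encodes a subunit of SCF ubiquitin ligases. The region chr11:114436575-114436981, 407 bp wide, lay 92857 bp from Rpl38, a ribosomal protein gene, and 92702 bp from the nearest 2 h region. The region chr15:3114445-3114740, 296 bp wide, lay 103807 bp from Sepp1, the gene of the selenium carrier selenoprotein P. The region chr13:113489893-113490187, 295 bp wide, was in an intron of Slc38a9, a lysosomal amino acid transporter, 33674 bp from its start. The remaining 3 were chr4:146794468-146794808 (341 bp, introns of lincRNA genes), chr9:118837907-118838154 (248 bp, intron of Ctdspl, 831 bp from a start site) and chr5:113271814-113271991 (178 bp, intron of Myo18b). Apart from the Tmem181b-ps region these were 178 to 464 bp wide, and none held a CTCF match.

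In the subset with a 12 h region, 6 of the 8 had a score of 1000. The widest, chr4:145743029-145743949, was 921 bp (vehicle) and 803 bp (12 h) wide and lay in an intron of Gm13251, 833449 bp from the nearest 2 h region, the largest such gap of all 610. A region between genes, chr8:22127395-22127837, had widths of 443 bp (vehicle) and 473 bp (12 h), 37351 bp from Defa21, a gene of the intestinal alpha-defensin family. At the start of Cbr4, a carbonyl reductase gene, chr8:63973615-63973951 had widths of 337 bp (vehicle) and 327 bp (12 h). At the start of Ech1, an enzyme gene of fatty acid oxidation, chr7:29610157-29610372 had widths of 216 bp (vehicle) and 577 bp (12 h). Similar widths in both lists were seen for chr11:22939602-22939823, between genes (222 and 194 bp), and for chr11:51620412-51620563 (152 bp at both), whose 31 bp words had a median of 868 copies in the genome. The last 2 were at the start of Klhl17, an actin-binding adaptor gene (chr4:155609942-155610220, score 979, 279 and 540 bp), and at the start of 0610030E20Rik (chr6:72297218-72297897, score 960, 680 and 678 bp). Of these 8, the union regions of 4 covered a start site of a protein-coding gene. At Ech1 and Klhl17 the union region was wider than the vehicle region, at chr7:29609935-29610511 and chr4:155608762-155610220.

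Missing regions lay mostly away from promoters. A start site of an annotated transcript was within 1000 bp for 57 of 457 in the vehicle list alone, 12.5% (9.75 to 15.8%), and for 31 of 153 with a 12 h region, 20.3% (14.7 to 27.3%), against 55.3% of kept regions. The difference from kept regions was -42.9 percentage points (-45.7 to -39.4) and -35.1 points (-40.7 to -28.0). Because kept regions were wider, their share was also weighted to the vehicle width of each subset, which gave 36.6% and 31.3%. The share in both subsets was lower than that. Distance to a start site was measured from the edges of the union region, which also spans any 2 h and 12 h regions. Weighting by vehicle width does not correct for that added span in kept regions. The subsets themselves differed by 7.79 points (1.26 to 15.4), higher with a 12 h region, but by 2.75 points (-4.61 to 11.4) among regions under 250 bp.

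The centre of the highest-scored vehicle interval was in an exon in 8.32% of the vehicle list alone and 11.1% with a 12 h region, against 28.8% of kept regions. It was in an intron in 39.4%, 30.7% and 30.7%, and between genes in 52.3%, 58.2% and 40.5%. Coding sequence held the centre of 18 of 457 and of 1 of 153. More than 1000 bp from any start site, coding sequence held 12 of 400 in the vehicle list alone, 3.0% (1.72 to 5.17%), against 0.837% of kept regions, a difference of 2.16 points (0.865 to 4.34). With a 12 h region it held 0 of 122 there, which allows up to 3.05%, a difference of -0.837 points (-1.08 to 2.22).

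By rule, the 12 highest-scored missing regions within 1000 bp of a start site of a protein-coding gene were named. They include the regions at Tmem181b-ps, Cbr4, Ctdspl, Ech1, Klhl17 and 0610030E20Rik given above. The other 6 began with Tmbim6, an inhibitor of cell death in the endoplasmic reticulum membrane (score 967, 268 bp, vehicle list alone). Bace1, the β-secretase gene, had a region at its start with a score of 876 and widths of 232 and 298 bp in the vehicle and 12 h lists. Slc17a1, a phosphate transporter gene (score 855, 460 bp), and Hist1h1c, a linker histone gene (score 841, 382 bp, within coding sequence), were in the vehicle list alone. Aes, a gene of the Groucho corepressor family (score 839), had widths of 386 and 884 bp in these lists. Htr1d, a serotonin receptor gene (score 831, 159 bp), was in the vehicle list alone. Of the 12, 6 had a 12 h region.

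At loci of the pathways studied, the share of vehicle regions that were missing was not shown to differ from that of the whole list. The lists hold 146 entries in 9 groups, and a region was counted within 100 kb of a gene's 5′ end. The annotation lacked 1 entry of the mammary lineage list and 1 of the serum and insulin list. At epithelial junction genes there were 5 missing of 116 vehicle regions (4.31%, interval 1.85 to 9.69%), at the AP-1 family 3 of 81 (3.70%), at mesenchymal matrix genes 3 of 63 (4.76%), at serum and insulin response genes 4 of 100 (4.00%), at mammary lineage regulators 4 of 59 (6.78%), at cell cycle genes 3 of 50 (6.00%) and at EMT transcription factors 1 of 18 (5.56%). Genes of TGFβ ligands, receptors and Smads held 0 of 76, which allows up to 4.81%, and keratins 0 of 23, which allows up to 14.3%. All of these intervals include the share over the whole vehicle list, 3.66%. The 3 regions near mesenchymal matrix genes (Acta2, Tagln and Thbs1) had a 12 h region, as did 1 each near epithelial junction, AP-1 and cell cycle genes, and the others were in the vehicle list alone. The regions within 10 kb of a listed gene were 3, all in the vehicle list alone. One was 3040 bp from the 5′ end of Cdkn1b, which encodes the CDK inhibitor p27 (chr6:134867208-134867379, score 585, 172 bp). Another was 3495 bp from Cebpb, a transcription factor of mammary epithelium (chr2:167510748-167510920, score 587, 173 bp). The third was 5381 bp from Ier3, an immediate early gene (chr17:35952892-35953248, score 769, 357 bp).

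Sequence was not used to choose the regions, and it differed from that of kept regions. Exact matches to 15 motifs on either strand were counted in the 500 bp around the centre. CTCF, searched by its 12-base core consensus, was matched in 51 of 457 regions in the vehicle list alone, 11.2% (8.59 to 14.4%), and in 39 of 153 with a 12 h region, 25.5% (19.2 to 32.9%). Kept regions had a match in 2.55% (2.32 to 2.81%), all union regions in 4.18%, and windows 5 kb to either side of the missing regions in 6 of 1147, or 0.523%. Here and below, only such windows that overlapped no union region and had complete sequence were used. The differences from kept regions were 8.61 points (6.03 to 11.8) and 22.9 points (16.7 to 30.4). Away from start sites the shares were 12.2% and 31.1%, against 4.12% of kept regions. Among other regions absent from some list, a match was found in 4.73% (3.52 to 6.33%) of those in the vehicle and 2 h lists, 7.81% (7.10 to 8.58%) of those at 2 h alone and 5.12% (4.61 to 5.69%) of those at 12 h alone, all above the kept share.

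AP-1 (TGACTCA) showed the opposite pattern. A match was found in 54 of 457 in the vehicle list alone, 11.8% (9.17 to 15.1%), and in 23 of 153 with a 12 h region, 15% (10.2 to 21.5%), against 26.8% of kept regions and 36.5% of all union regions. Away from start sites the shares were 12.5% (9.61 to 16.1%) and 16.4% (10.9 to 24.0%), while kept regions there had 50.2% (49.1 to 51.4%), a difference of -37.7 points (-40.8 to -33.9) and of -33.8 points (-39.5 to -26.2). A lower share than in kept regions was also seen there in vehicle regions kept at 2 h and absent at 12 h, 27% (24.0 to 30.2%). Windows 5 kb away had 7.67% (6.27 to 9.36%). Among missing regions with a CTCF match, 10 of 90 also had an AP-1 match.

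The E-box CAGGTG was matched in 42.2% (37.8 to 46.8%) of the vehicle list alone and 43.8% (36.2 to 51.7%) with a 12 h region, against 30.7% of kept regions, 30.4% of all union regions and 35.1% (32.4 to 37.9%) of windows 5 kb away. This word can lie inside a CTCF match. With boxes inside CTCF matches left out, the shares were 41.4% and 41.2% against 30.4% of kept regions, differences of 10.9 points (6.43 to 15.5) and 10.7 points (3.21 to 18.7). The count outside CTCF matches was added after the data were seen.

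Of the promoter motifs searched, the GC box and the ETS site were scarcer, as were start sites. The TATA box was more frequent than in kept regions in the vehicle list alone, by 8.3 points (4.75 to 12.3), or 2.34 points after weighting by width. With a 12 h region its difference was 1.89 points (-2.94 to 8.43). For the CCAAT box the differences were 4.1 points (-0.532 to 8.73) and -4.18 points (-11.7 to 3.78). The GC box GGGCGG was matched in 11.6% and 20.9% of the subsets against 52.2% of kept regions and 29.0% of all union regions, and the ETS site CCGGAAG in 4.81% and 7.19% against 15.4% and 8.18%. Away from start sites, the GC box remained lower than in kept regions (10.5% and 9.84% against 17%), and the FOX site TGTTTAC was also lower (8.75% and 4.10% against 13.0%). For ETS the difference there was 1.01 points (-0.796 to 3.64) and -0.712 points (-2.77 to 4.16). Of the 15 motifs, the same 5 had a difference whose interval excluded 0 away from start sites in each subset. CTCF and CAGGTG were higher, and AP-1, the GC box and FOX were lower. For the other 10 the interval included 0. They were TEAD (CATTCC), the SMAD palindrome (GTCTAGAC), the HNF1 motif (GTTAAT), ETS, the CCAAT box, GRHL (AACNNGTT), NF1, STAT (TTCNNNGAA), the TATA box (TATAAA) and the MYC and USF E-box (CACGTG). The differences away from start sites used kept shares not weighted to width. Against weighted kept shares, the intervals of the shares overlapped for FOX and the GC box in both subsets. They also overlapped for CAGGTG with a 12 h region. For CTCF in the vehicle list alone they did so too, 12.2% (9.39 to 15.8%) against 8.54% (7.37 to 9.72%). In windows of 200 bp CTCF, CAGGTG and AP-1 had an interval that excluded 0 in both subsets. The FOX interval then included 0 in both (-3.64 to 0.86 and -6.07 to 0.219), the GC box interval included 0 with a 12 h region (-7.13 to 1.56), and TEAD was lower with a 12 h region (-11.2 to -0.694). The SMAD palindrome was matched in 4 of 457 and 0 of 153, against 0.436% of kept regions and 0.806% of all union regions.

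**Figure D2:**
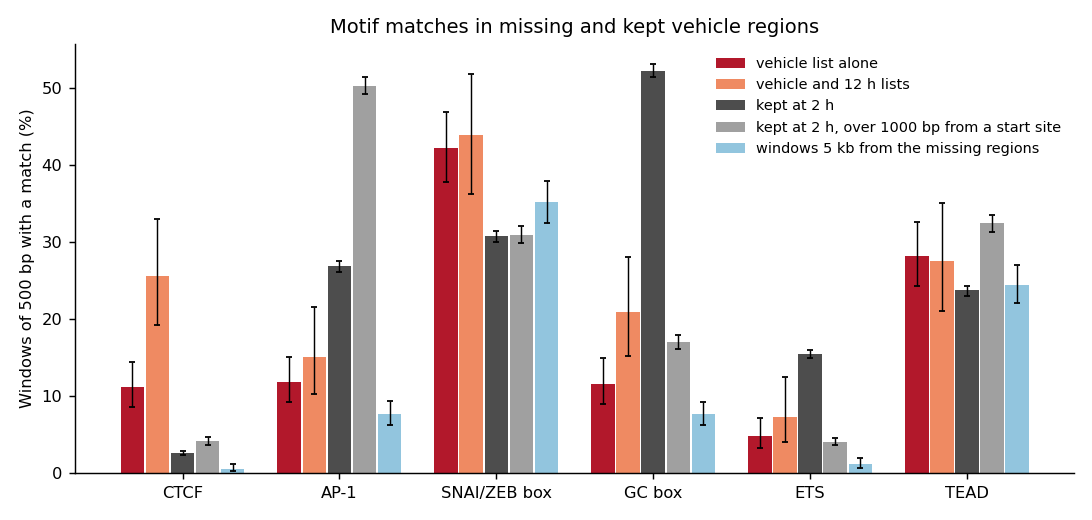
Share of 500 bp windows with an exact motif match (percent, y axis) for 6 motifs in missing regions of the vehicle list alone, missing regions with a 12 h region, all kept regions, kept regions over 1000 bp from a start site, and windows 5 kb from the missing regions; error bars are 95% Wilson intervals. CTCF matches stood at 11.2% and 25.5% in the missing regions against 2.55% in kept regions, and AP-1 matches at 11.8% and 15% against 26.8%; kept regions away from start sites had 4.12% and 50.2%.

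Because CTCF matches were concentrated in narrow regions of both kinds, shares were also read at equal width. Among regions of 150 to 249 bp, CTCF was matched in 24.4% (18.7 to 31.2%) of the vehicle list alone and 30.4% (22.3 to 39.9%) with a 12 h region, against 11.8% (10.2 to 13.6%) of kept regions. The subsets differed there by 5.95 points (-4.59 to 17), so their difference of 14.3 points (7.30 to 22.2) over all widths was not shown at this width. Kept regions weighted to the width of each subset had 7.07% (6.12 to 8.03%) and 10.9% (9.23 to 12.5%). In wider regions of the vehicle list alone no CTCF excess was seen. At 250 to 399 bp the share was 4.93% (2.41 to 9.83%), against 3.19% (2.61 to 3.89%) of kept regions. At 400 to 599 bp it was 0 of 80, which allows up to 4.58%, against 2.04%, and above that 0 of 55, which allows up to 6.53%, against 0.969%. With a 12 h region the counts in these 3 classes were 4 of 24, 4 of 16 and 0 of 11, the latter allowing up to 25.9%. For AP-1, regions of 150 to 249 bp had 9.44% (5.98 to 14.6%) and 12.7% (7.60 to 20.6%), against 31.6% (29.2 to 34.2%) of kept regions. At 250 to 399 bp they had 9.15% and 8.33%, against 41.5%. In wider regions the AP-1 difference was smaller or had the other sign. Where it had the other sign, the interval of the missing regions included the kept share. At 400 to 599 bp the shares were 16.2% (9.75 to 25.8%) and 43.8% (23.1 to 66.8%), against 35.5%, and above that 11 of 55 (11.6 to 32.4%) and 1 of 11 (1.62 to 37.7%), against 15.8%.

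The same counts can be read from the vehicle list forward, with width not held further inside a class. Of vehicle regions under 250 bp, 75 of 234 with a CTCF match were missing at 2 h (32.1%) and 207 of 1394 without one (14.8%), a difference of 17.2 points (11.2 to 23.7). The 75 were 44 in the vehicle list alone and 31 with a 12 h region. With an AP-1 match 30 of 456 were missing (6.58%) and without one 252 of 1172 (21.5%), a difference of -14.9 points (-18.0 to -11.4). For CAGGTG the shares were 22.6% with and 14.7% without, a difference of 7.89 points (3.87 to 12.1). The CTCF and AP-1 differences kept their sign on both sides of a score of 700. Among narrow regions with a score under 700, 42.2% with a CTCF match and 22.3% without one were missing, and 10.7% with an AP-1 match and 31.7% without one. At a score of 700 or more the shares were 14.9% and 7.98% for CTCF, a difference of 6.96 points (0.577 to 16.1), and 2.60% and 11.1% for AP-1, a difference of -8.55 points (-11.7 to -4.81). In regions of 250 bp or more away from start sites, 8.88% with and 4.08% without a CTCF match were missing, and 1.35% with and 7.13% without an AP-1 match.

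**Figure D3:**
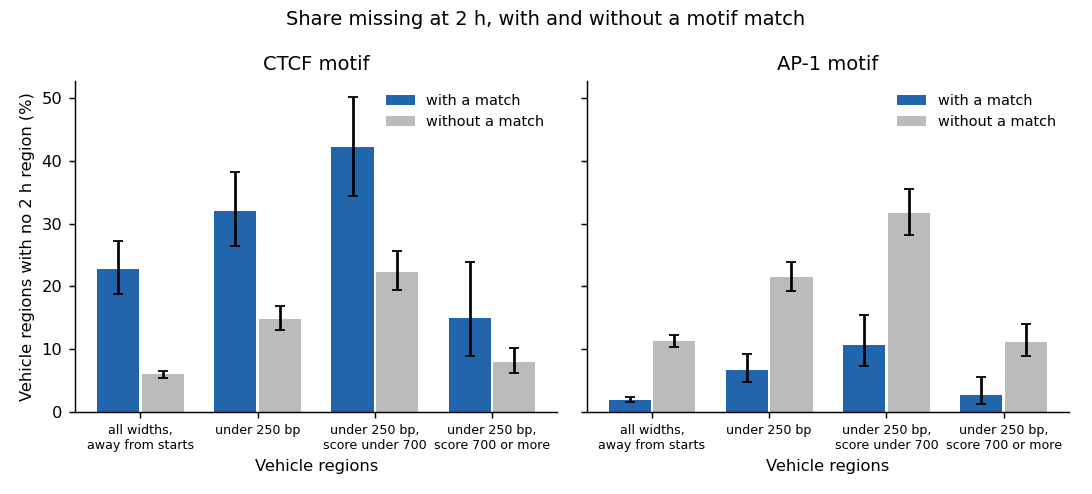
Share of vehicle-holding regions with no 2 h region (percent, y axis) with and without a CTCF match (left) and an AP-1 match (right), in regions over 1000 bp from a start site, in regions under 250 bp, and in the latter split at a score of 700; error bars are 95% Wilson intervals. In each group of regions shown the share was higher with a CTCF match, for example 32.1% against 14.8% under 250 bp, and lower with an AP-1 match, 6.58% against 21.5%.

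The CTCF matches lay at the middle of the regions. The distance from the centre of the highest-scored vehicle interval to the middle of the match had a median of 13.0 bp over 53 matches in the vehicle list alone and 14.0 bp over 39 matches with a 12 h region. Within 25 bp lay 41 of 53, 77.4% (64.5 to 86.5%), and 33 of 39, 84.6% (70.3 to 92.8%). In kept regions the median was 46.5 bp over 416 matches, and 39.7% lay within 25 bp. Under 250 bp of width the kept regions were alike, with a median of 14.0 bp over 161 matches, while the missing regions had 13.0 bp over 77. The 90 missing regions with a CTCF match had a median vehicle width of 188 bp (quartiles 167 and 212 bp) and a median score of 643, and 3 of them lay at a start site. The other 520 had a median width of 296 bp and a score of 632. A 12 h region was present in 39 of the 90, 43.3% (33.6 to 53.6%), and in 114 of the 520, 21.9% (18.6 to 25.7%). These shares were not taken at equal width, and narrow regions more often had a 12 h region. At 150 to 249 bp one was present in 31 of 75 with a CTCF match. Of all 282 missing regions of that width, which include these 75, 102 had a 12 h region, 36.2% (30.8 to 41.9%).

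**Figure D4:**
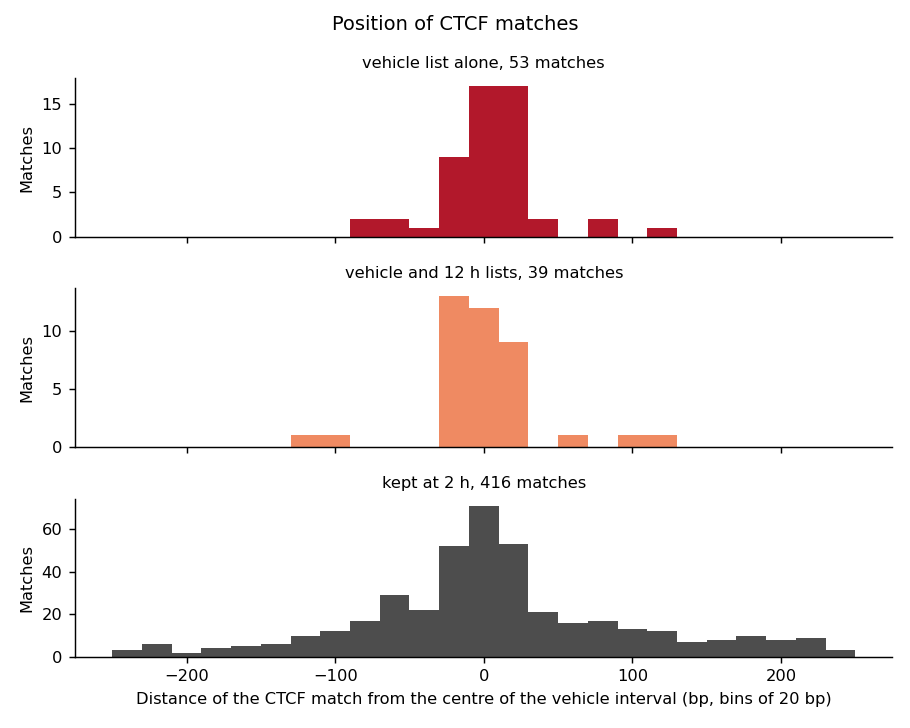
Number of CTCF matches (y axis) by distance in bp from the centre of the highest-scored vehicle interval (x axis, bins of 20 bp) in missing regions of the vehicle list alone (53 matches), missing regions with a 12 h region (39 matches) and kept regions (416 matches). Matches in the missing regions sat around 0, with medians of 13.0 and 14.0 bp, and those in kept regions spread farther, with a median of 46.5 bp.

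Base composition differed from that of all kept regions, and less so after weighting by width. Median GC content in the same windows was 49.2% (interval of the median 48.6 to 49.8%) in the vehicle list alone and 49.8% (48.4 to 51.2%) with a 12 h region, against 57.0% in kept regions and 45.6% in windows 5 kb away. The observed over expected frequency of CpG, which is high in CpG islands, had medians of 0.201, 0.318 and 0.576. When kept regions were weighted to the subset's width, the difference in GC content was -1.40 points for the vehicle list alone and 0.400 points for the subset with a 12 h region, where its sign turned. The corresponding differences in the CpG measure were -0.116 and 0.0146. GC content over 60% was seen in 12 of 457 and 16 of 153, a difference between subsets of 7.83 points (3.47 to 13.8). Away from start sites this difference was 0.139 points (-1.96 to 4.36). GC content over 60% was seen there in 1.5% and 1.64% of the subsets, against 5.16% of kept regions. The differences from kept regions were -3.66 points (-4.64 to -1.86) and -3.52 points (-4.83 to 0.646). Weighted to the width of each subset, the kept shares there were 3.07% and 1.78%.

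Sequence that occurs more than once in the genome was more frequent in the vehicle list alone. More than 50% of the 31 bp words in the central 200 bp had another copy in 32 of 457, 7.0% (5.0 to 9.72%), against 2 of 153 with a 12 h region, 1.31% (0.359 to 4.64%), and 0.736% of kept regions. The difference from kept regions was 6.27 points (4.26 to 8.98) and 0.572 points (-0.387 to 3.91). These 34 regions had a median vehicle width of 419 bp, and the others 268 bp. For 30 of them the median number of copies was 10 or fewer. Each of these 30 had a further copy that shared at least 30 words, within 1 Mb in 25. Such a copy lay in a vehicle region in 7 and in a 2 h region in 3. The part of repeated sequence in these calls was not tested.

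Of the 34, 12 lay on chromosome 17, and 8 of those lay together at chr17:6240144-6503603, a stretch near Tulp4, Tmem181a, Dynlt1a and Tmem181b-ps, where the central words had a median of 2 or 3 copies. All 8 were in the vehicle list alone, with scores from 555 to 1000 and widths from 252 to 2364 bp. Between 6.0 and 6.6 Mb the vehicle list held 16 union regions, of which the other 8 were kept. The region at chr17:6273911-6274238 in Tmem181a and the one at chr17:6472313-6474676 in Tmem181b-ps were copies of each other, and both were missing at 2 h. For the region at the start of Tmem181b-ps, another copy lay in a 2 h region. Others of the 34 were near Raet1c and Raet1d, genes of ligands for an activating receptor of natural killer cells, near Tdpoz4 on chromosome 3 and near Gsdmc4, a gasdermin gene, on chromosome 15. The widest missing region, chr8:73717344-73720637, was 3294 bp long, was built from 4 intervals and had 83.5% of its central words repeated. These regions were singled out after their values were seen.

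Missing regions were not spread evenly over chromosomes. The share of vehicle regions missing at 2 h was highest on chromosome 15, with 59 of 898 (6.57%, interval 5.13 to 8.38%), chromosome 17, with 51 of 796 (6.41%, 4.91 to 8.33%), and chromosome 19, with 42 of 701 (5.99%, 4.46 to 8.0%). It was lowest on chromosome 18, with 4 of 380 (1.05%, 0.410 to 2.67%), and chromosome 14, with 7 of 443 (1.58%, 0.767 to 3.23%). In the order given, the numbers in the vehicle list alone were 49, 43, 33, 4 and 3, and those with a 12 h region 10, 8, 9, 0 and 4. The other 15 ranged from 2.05 to 4.47%. The 3 chromosomes on top, grouped after the values were seen, held 152 of the 610 (24.9%) and 14.4% of the vehicle regions. Their shares stayed the highest without regions of repeated words, at 6.47%, 5.16% and 6.03%, where the next was 4.40% on chromosome 5. Among vehicle regions under 400 bp they were 17.8%, 15.1% and 13.4%, equal to chromosome 7 at 13.4% in the last case. Regions lost at 12 h only made up 6.46%, 5.65% and 6.13% of vehicle regions there, and 3.69 to 7.04% on the other chromosomes.

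**Figure D5:**
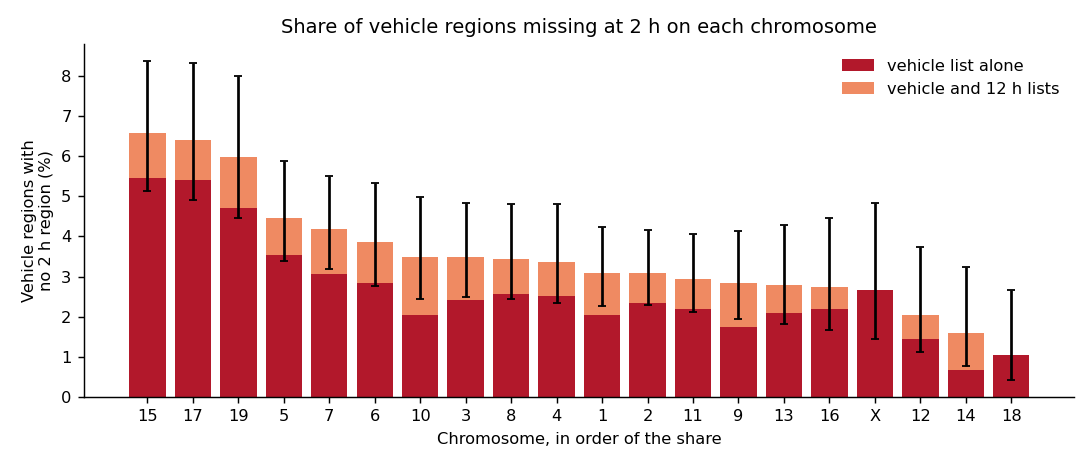
Share of vehicle-holding regions with no 2 h region on each chromosome (percent, y axis), in order of the share, split into regions in the vehicle list alone and regions also in the 12 h list; error bars are 95% Wilson intervals of the whole share. Chromosomes 15, 17 and 19 stood at 6.57%, 6.41% and 5.99%, and chromosome 18 at 1.05%.

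The distance to the nearest 2 h region, which by the rule is never under 1000 bp, varied widely. The median gap to the nearest 2 h region was 13430 bp in the vehicle list alone (quartiles 5185 and 37661 bp) and 9730 bp with a 12 h region (quartiles 5409 and 22873 bp). Within 10 kb there was a 2 h region for 42.7% (38.2 to 47.2%) and 51.0% (43.1 to 58.8%), and within 100 kb for 92.1% and 96.7%. Gaps between missing regions have no background share beside them, so whether these regions cluster was not tested. Another missing region lay within 10 kb for 5.69% and 1.31%, and within 100 kb for 21.7% and 19.6%, and the median gap between missing regions was 539070 bp and 501583 bp.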

How the data were processed

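ATAC-seq was measured in 6 NMuMG samples, 2 per condition. The authors ran the ENCODE ATAC-seq pipeline on mm9, called peaks with MACS2 2.1.2 (named in the submitters' processing notes as well) at a q-value threshold of 0.01, and kept peaks that both replicates shared at an IDR of 0.05. The processed files used here are 1 peak list per condition, with the position of each peak in bp as deposited. The deposited vehicle list has a score for each peak, whose scale no source used here states. In the other lists the same column holds line numbers and was not used. No list gives counts. The library totals stated by the study were not used here. The intervals, their merging and the choice of regions are given with the results. The sequence and start sites came from NCBIM37 and GENCODE vM1, the build of the files. The genome text was not repeat-masked, so repeats were measured by 31 bp words found more than once in the genome, on either strand. Motif windows reached 250 bp, and word windows 100 bp, to either side of the centre of the highest-scored vehicle interval. In union regions without a vehicle region, the centre was the middle of the union region. Kept regions were weighted over 5 bins of vehicle width, cut at the quintiles of the missing regions. Named regions were the 8 of highest score in each subset (ties to the wider region), the 12 of highest score at protein-coding start sites, and those within 10 kb of listed genes. Regions, gene lists and motifs were chosen with earlier results of these data known. Scripts used Python 3.11.15, numpy 2.4.6, pandas 2.3.3 and matplotlib 3.10.9 and were tested on simulated data. Alternatives covered merging, widths, scores, windows, start-site margins and width weighting.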

Additional observations from a re-analysis of the deposited data

How the results depend on the processing

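No paired analysis was possible because each list pools both replicates. For the same reason no replicate could be left out. Of the counts, medians, shares and differences recomputed, 173 of 266 stayed within 1.5 times the count or within the 95% interval, 86 moved beyond it and 7 turned from an interval that excluded 0 to the other sign. The number of missing regions was 400 (291 in the vehicle list alone) with a minimum width of 300 bp, and 16 (10 and 6) with vehicle intervals of score 1000 alone. Under the other settings, which covered merging, no minimum width, autosomes and direct overlap, it ranged from 569 to 719 in all.

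With a start-site margin of 500 bp, 8.75% of the vehicle list alone lay at a start site, and with 5000 bp 30.4% and, with a 12 h region, 39.9%. The differences from kept regions were -33.1 and -23.7 points at 5000 bp, and -24.1 and -11.0 points after weighting by width.

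AP-1 shares were 5.47% and 8.5% in windows of 100 bp to either side, and 8.73% in the vehicle list alone at a score of 700 or more. Against kept regions the AP-1 difference for the vehicle list alone was -37.7 points away from start sites, -24.5 against kept regions of score under 700, -22.2 under 250 bp and -20.0 after weighting. With a 12 h region the first 3 of these were -33.8, -21.3 and -18.9 points. CTCF shares in the vehicle list alone were 7.14% at a score of 700 or more and 24.4% under 250 bp. The relaxed consensus CCANNAGNNGGC gave 16%, and 35.9% with a 12 h region. CTCF differences for the vehicle list alone were 5.17 points at a score of 700 or more, 5.38 against kept regions of score under 700, 12.6 under 250 bp and 4.09 after weighting, and with a 12 h region 14.6 after weighting. The settings on score, narrow regions and the relaxed consensus were chosen after seeing the data. None of the settings in this paragraph changed the sign of the CTCF or AP-1 differences. Read by class of width, it turned in some classes of 400 bp or more, as given in the results. In those classes the interval of the missing regions included the kept share. Away from start sites, differences of the vehicle list alone from kept regions changed sign for TEAD (-4.13 points), HNF1 (-3.63), ETS (1.01), STAT (-0.491), the TATA box (-0.157) and FOX (-4.28, from 0.373). With a 12 h region they did so for TEAD (-6.15), HNF1 (-4.76), STAT (-0.987) and the TATA box (-4.19). Windows of 100 bp to either side or weighting turned FOX, TEAD, HNF1, STAT or TATA differences whose interval had included 0.

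Median GC content was 51.0% and 51.5% in windows of 100 bp to either side. After weighting by width, GC differed from kept regions by -1.40 and 0.400 points and the CpG measure by -0.116 and 0.0146, the values of the subset with a 12 h region being reversed. Mostly repeated sequence was at 4.83% of the vehicle list alone off chromosome 17, and any repeated word at 15.8% and 5.88%, with differences for the vehicle list alone of 4.24 and 10.7 points. On chromosomes 15, 17 and 19 together 6.35% of vehicle regions were missing and elsewhere 3.21%, and 15.6% and 8.56% among regions under 400 bp. The settings on repeats and chromosomes were also added after seeing the data. The cause of these shifts was not tested. With 1 list per condition and no signal values, a region that closed and a region just under the 2 h calling threshold cannot be told apart.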
